A study of Homo sapiens with 6 samples.

Results

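The general and alternative splicing machinery was examined in U2932 cells after silencing of the kinase ROCK2. The genes were taken by symbol: all those starting with SRSF, HNRNP, SF3A, SF3B, SNRP or PRPF, without antisense transcripts and pseudogenes, which gave 70 genes of the 20667 symbols listed. They comprised 12 SRSF, 24 HNRNP, 3 SF3A, 6 SF3B, 12 SNRP and 13 PRPF genes, and 6 further symbols with these prefixes were left out as antisense or pseudogene. Of the 70, 66 reached 1 FPKM (fragments per kilobase of transcript, normalised to all mapped fragments of a library) in at least 3 libraries and were tested.

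U2932 is an established human line of diffuse large B-cell lymphoma (DLBCL), an aggressive tumour of mature B cells, and belongs to its activated B-cell-like (ABC) subtype. Bulk RNA-seq libraries were made from U2932 cells that stably expressed an shRNA against ROCK2 (ROCK2 KD, 3 libraries) or a scrambled shRNA (Scr, 3 libraries). Both lines carried the same kind of lentiviral shRNA construct, with puromycin resistance and a green fluorescent protein, and both were sorted and kept under puromycin. The libraries are numbered 1 to 3 in each group, and whether the numbers stand for separate cultures is not given in the sources used here, so the p-values measure the spread between these libraries, which may be technical.

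Introns are removed by the spliceosome, which assembles on each intron from small nuclear ribonucleoprotein particles (snRNPs) and many further proteins. SNRP genes encode the Sm ring that wraps the spliceosomal RNAs and proteins of the U1 and U2 snRNPs, SF3A and SF3B genes encode the U2 complexes that hold the branch point, and PRPF genes mostly encode proteins of the U4/U6.U5 tri-snRNP and of the catalytic spliceosome. SR proteins (SRSF genes) and hnRNP proteins bind exons and introns of the pre-mRNA, and the choice of splice sites depends on the balance between them.

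ROCK2 itself was measured at 4.03, 4.33 and 1.06 scaled FPKM in ROCK2 KD and at 6.34, 5.83 and 4.91 in Scr, where scaled FPKM is the FPKM divided by a factor per library that aligns the bulk of the genes and values are given here and throughout for replicates 1, 2 and 3 in that order. ROCK2 was thus lower in all 3 pairs of equal number, with differences of −0.54, −0.36 and −1.52 on the log2(scaled FPKM + 1) scale, although the fitted difference of −0.81 (SE 0.223) did not pass after adjustment over all genes (limma with the replicate number as a block, adjusted p = 0.811). The B-cell genes CD79A, CD79B and MS4A1 lay between 57.0 and 538 FPKM, and the T-cell, monocyte, keratin and globin markers stayed at or below 0.758, with the epithelial gene EPCAM at 2.59 to 5.00 FPKM. The values in both replicate 1 libraries were on another scale than the other 4, with scaling factors of 0.682 in each against 1.18 to 1.24. The 70 genes took 1.35 to 1.95% of the summed FPKM of a library, with both replicate 1 libraries lowest.

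The first question was whether silencing of ROCK2 changed the level of the splicing genes. By limma, none of the 66 genes passed an adjusted p of 0.05, against 0.0% of all 10526 genes tested, which does not show that the levels were equal. SF3A2 was the 1 splicing gene with an unadjusted p under 0.05, where 5.39% of all genes had one (567 genes). It was lower in ROCK2 KD, as were 2.3% of all genes at that threshold, and no splicing gene was higher, against 3.09%. The differences were small: their median size was 0.060 on the log2 scale, against 0.087 over all genes. By sign, 45 splicing genes were lower in ROCK2 KD and 21 higher, against 51.3% of all genes lower, and the median difference was −0.038 against −0.0043 for all genes. This median rested on single replicate numbers: it was −0.027 without replicate 1, −0.10 without replicate 2 and 0.019 without replicate 3. Bulk libraries cannot tell fewer cells of a kind from less RNA per cell.

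The direction differed between the 3 pairs. In pair 1, 41 of the 66 genes were lower in ROCK2 KD (62.1%, against 48.0% of all genes). In pair 2, 24 were lower (36.4%, against 51.3%). In pair 3, 55 were lower (83.3%, against 50.1%). The median differences of the splicing genes were −0.046, 0.066 and −0.15 in pairs 1, 2 and 3, while those of all genes were 0.011, −0.0066 and −0.00080. ROCK2 itself differed most in pair 3; with 3 pairs, no relation between them was tested.

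**Figure D1:**
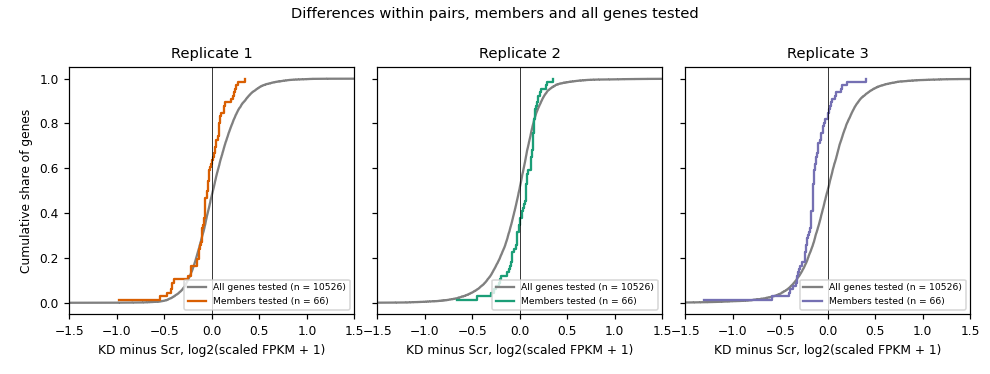
Cumulative share of genes (vertical axis) by the ROCK2 KD minus Scr difference in log2(scaled FPKM + 1) (horizontal axis, drawn from −1.5 to 1.5) in each same-numbered pair. The coloured line is the 66 splicing genes and the grey line all 10526 genes tested: the coloured line lies right of the grey one at its middle in replicate 2 (median 0.066) and left of it in replicate 3 (median −0.15).

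Counting signs by gene, 14 of the 66 were lower in all 3 pairs (21.2%, against 12.3% of all genes) and 1, SF3B5, was higher in all 3 (1.52%, against 12.7%). A set of 20 genes was lower in pairs 1 and 3 and higher in pair 2 (30.3%, against 11.1%), and 19 were higher in pairs 1 and 2 and lower in pair 3 (28.8%, against 10.9%). By family, the median difference was 0.019 for SRSF (4 of 11 lower), −0.036 for HNRNP (13 of 22 lower), −0.11 for SF3A (3 of 3 lower), −0.038 for SF3B (5 of 6 lower), −0.047 for SNRP (8 of 11 lower) and −0.068 for PRPF (12 of 13 lower).

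**Figure D2:**
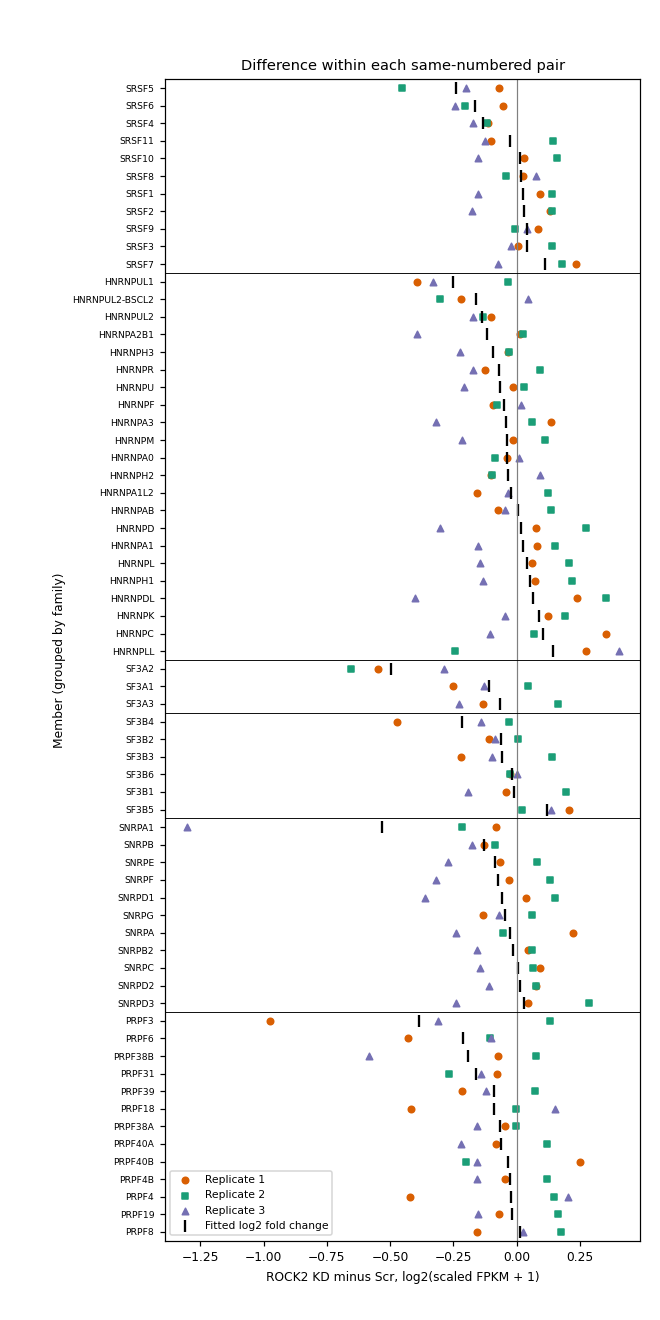
ROCK2 KD minus Scr difference in log2(scaled FPKM + 1) (horizontal axis) for each of the 66 tested genes (vertical axis, grouped by family) in replicate 1 (circles), replicate 2 (squares) and replicate 3 (triangles), with the fitted difference as a black tick. The triangles of all 11 SNRP genes lie left of 0, and the farthest single points are SNRPA1 in replicate 3 (−1.30) and PRPF3 in replicate 1 (−0.98).

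The lowest p among the splicing genes belonged to the U2 snRNP. SF3A2, a subunit of the SF3A complex that joins the U2 particle before it contacts the branch point, was measured at 71.9, 41.5 and 93.4 scaled FPKM in ROCK2 KD and at 106, 66.0 and 114 in Scr (gene at chr19:2236823-2248654, GRCh37). It was lower in ROCK2 KD within each number (−0.55, −0.66 and −0.29), but the groups overlapped, since ROCK2 KD replicate 3 lay above Scr replicate 2. The fitted difference was −0.50 (SE 0.107), with an unadjusted p of 0.003 and an adjusted p of 0.811 by limma, and it lay between −0.59 and −0.42 when each replicate number was left out in turn. Without the block no splicing gene had an unadjusted p under 0.05, and after the replicate number was removed with ComBat, SF3A2 was the 1 of 66 splicing genes that passed (−0.38, adjusted p = 0.0339 by limma), where 297 of all 10526 genes did, in a fit that does not charge the removed replicate means to its degrees of freedom. The other SF3A subunits had smaller differences. SF3A1, which binds U1 stem-loop RNA and U2 proteins, was at 28.9, 48.2 and 47.1 scaled FPKM in ROCK2 KD and at 34.6, 46.7 and 51.6 in Scr, with a difference of −0.11 (SE 0.103, adjusted p = 0.97). When each replicate number was left out in turn, this difference lay between −0.19 and −0.039. SF3A3 was at 49.9, 76.8 and 62.0 scaled FPKM in ROCK2 KD and at 54.8, 68.4 and 72.8 in Scr, with a difference of −0.065 (SE 0.11, adjusted p = 0.99), and its sign turned without replicate 3 (0.024). For both, the groups overlapped and pair 2 had the opposite sign of pairs 1 and 3.

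Of the 6 SF3B genes, only SF3B5 had a positive fitted difference, though 4 of the 6 were higher in pair 2. SF3B5, a small structural subunit, was at 77.6, 106 and 123 scaled FPKM in ROCK2 KD and at 67.1, 105 and 112 in Scr, higher in each pair but with overlapping groups and a difference of 0.12 (SE 0.0932, adjusted p = 0.967). SF3B4, which contacts pre-mRNA near the branch point, was at 99.3, 142 and 141 scaled FPKM in ROCK2 KD and at 138, 145 and 156 in Scr. It was lower in each pair (−0.47, −0.031 and −0.14), with a fitted difference of −0.22 (SE 0.113, adjusted p = 0.957) that came to −0.083 without replicate 1. SF3B1, the largest subunit and a recurrent target of mutations in blood cancers, was nearly level at 71.2, 98.2 and 67.2 scaled FPKM in ROCK2 KD and at 73.3, 85.5 and 76.9 in Scr (difference −0.012). SF3B2, a partner of SF3B4, was at 81.2, 115 and 104 scaled FPKM in ROCK2 KD and at 87.6, 115 and 110.4 in Scr and differed by −0.062. The differences of SF3B3 and of SF3B6, which touches the branch-point adenosine, were −0.059 and −0.017; both were looked at after their values were known.

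SNRPA1, a core protein of the U2 snRNP, had the largest fitted difference of all 66 genes. It was measured at 93.5, 88.4 and 76.9 scaled FPKM in ROCK2 KD and at 99.0, 103 and 191 in Scr (gene at chr15:101821715-101835487, GRCh37). All 3 ROCK2 KD libraries lay below all 3 Scr libraries, a pattern shared with PRPF6 among the splicing genes (2 of 66, 3.03%, against 0.903% of all genes); none lay entirely above (against 1.24%). However, Scr replicate 3 was far above the other Scr libraries, and the pair differences were −0.082, −0.22 and −1.30. The fitted difference of −0.53 (SE 0.228, adjusted p = 0.909) came to −0.14 without replicate 3. In the annotation, 41.6% of the 50-base stretches of the SNRPA1 transcript also occur in other genes, 34.0% in its pseudogene SNRPA1P1, so reads could be split between them.

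The Sm proteins form the ring around U1, U2, U4 and U5 RNA. SNRPD2 had the highest level of their transcripts, at 254, 566 and 495 scaled FPKM in ROCK2 KD and at 241, 537 and 534 in Scr, with a difference of 0.014 (SE 0.0906, adjusted p = 0.996). SNRPB, which encodes SmB and SmB′, was at 188, 340.3 and 336 scaled FPKM in ROCK2 KD and at 206, 361 and 379 in Scr; it was lower in each pair and differed by −0.13 (SE 0.0861, adjusted p = 0.96). In both genes the replicate 1 libraries of the 2 groups were lower than every other library, and the groups overlapped. SNRPD1, another ring protein, was at 39.9, 70.8 and 58.9 scaled FPKM in ROCK2 KD and at 38.8, 63.6 and 76.1 in Scr and differed by −0.058. SNRPE was at 32.7, 27.5 and 59.7 scaled FPKM in ROCK2 KD and at 34.3, 25.9 and 72.3 in Scr and differed by −0.087. SNRPE was lowest in replicate 2 of both groups. SNRPA, a U1 snRNP protein that binds a U1 stem-loop, was at 39.2, 67.6 and 65.8 scaled FPKM in ROCK2 KD and at 33.5, 70.3 and 77.9 in Scr and differed by −0.025, higher in pair 1 and lower in pairs 2 and 3. In pair 3 all 11 tested SNRP genes were lower in ROCK2 KD, whereas in pair 2, 8 of the 11 were higher.

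In the PRPF family 12 of 13 genes were lower by the fitted difference, the largest being that of PRPF3. PRPF3, which holds the U4/U6 duplex in the tri-snRNP, was measured at 115, 165 and 103 scaled FPKM in ROCK2 KD and at 226, 151 and 128 in Scr. The difference was carried by replicate 1, where Scr was the highest of the 6 libraries (−0.98, 0.13 and −0.31 in the pairs). The fitted value of −0.39 (SE 0.195, adjusted p = 0.948) came to −0.088 without replicate 1. PRPF6, which bridges U5 and U4/U6 and was looked at after its values were known, was at 30.9, 36.4 and 37.5 scaled FPKM in ROCK2 KD and at 42.0, 39.3 and 40.3 in Scr. The groups did not overlap, and the difference was −0.21 (SE 0.11, adjusted p = 0.953 by limma). It was largest in pair 1 (−0.43, −0.11 and −0.10 in the pairs). PRPF31, which binds the U4 snRNA complex and is known for its mutations in retinitis pigmentosa, was at 28.5, 38.8 and 53.6 scaled FPKM in ROCK2 KD and at 30.1, 47.0 and 59.3 in Scr; it was lower in each pair and differed by −0.16 (SE 0.0968, adjusted p = 0.957). PRPF8, the U5 protein at the catalytic centre, was at 52.3, 89.98 and 84.7 scaled FPKM in ROCK2 KD and at 58.4, 79.6 and 83.1 in Scr and differed by 0.015. PRPF19, the ubiquitin ligase at the centre of the PRPF19 complex, was at 92.4, 142 and 105 scaled FPKM in ROCK2 KD and at 97.0, 127 and 117 in Scr and differed by −0.020. For PRPF8 and PRPF19 the groups overlapped, with replicate 1 lowest in both.

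Among the SR proteins, SRSF5 had the largest difference. SRSF5 was measured at 68.2, 70.1 and 50.2 scaled FPKM in ROCK2 KD and at 71.6, 96.3 and 57.8 in Scr; it was lower in each pair (−0.070, −0.45 and −0.20) and differed by −0.24 (SE 0.108, adjusted p = 0.922), with overlapping groups, and by −0.14 without replicate 2. SRSF1, the prototype exonic enhancer-binding SR protein, was at 44.4, 80.8 and 84.6 scaled FPKM in ROCK2 KD and at 41.6, 73.3 and 94.1 in Scr, with a difference of 0.026 (SE 0.102, adjusted p = 0.996). SRSF2, a recurrent target of mutations in myeloid neoplasms, was at 62.4, 121 and 117 scaled FPKM in ROCK2 KD and at 56.8, 109 and 132 in Scr, with a difference of 0.031. Both were higher in ROCK2 KD in pairs 1 and 2 and lower in pair 3.

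SRSF3, a short SR protein that also serves mRNA export, was at 58.2, 130.4 and 119.8 scaled FPKM in ROCK2 KD and at 58.0, 118 and 122 in Scr and differed by 0.039. SRSF7, which carries a zinc knuckle beside its RNA-recognition motif, was at 49.4, 81.1 and 71.7 scaled FPKM in ROCK2 KD and at 41.8, 71.5 and 75.5 in Scr and differed by 0.11 (SE 0.104, adjusted p = 0.97). Its pair differences were 0.23, 0.18 and −0.074, and leaving out each replicate number in turn gave 0.055 to 0.21. SRSF9, the most abundant SR transcript here, was at 128, 155 and 188 scaled FPKM in ROCK2 KD and at 120.4, 156 and 183 in Scr and differed by 0.039. Of its annotated 50-base stretches, 40.3% also occur in GATC, an overlapping gene. In these 3 genes both replicate 1 libraries lay below the other 4, and the groups overlapped.

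The hnRNP genes were the largest family and held several of the most abundant transcripts. HNRNPA1, a shuttling protein that silences exons, was measured at 230.0, 250.3 and 479.8 scaled FPKM in ROCK2 KD and at 218, 225 and 534 in Scr and differed by 0.026 (SE 0.0984, adjusted p = 0.996). HNRNPA2B1, its close relative, was at 159, 369 and 289.8 scaled FPKM in ROCK2 KD and at 158, 362 and 381 in Scr and differed by −0.12 (SE 0.113, adjusted p = 0.97). Both replicate 3 libraries of HNRNPA1 were far above the other 4, whereas HNRNPA2B1 was low in replicate 1 only.

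HNRNPC, which binds uridine tracts of nascent transcripts, was at 173, 248 and 315 scaled FPKM in ROCK2 KD and at 135, 237 and 338 in Scr and differed by 0.10. HNRNPK, a poly-C binding protein, was at 159, 288 and 295 scaled FPKM in ROCK2 KD and at 146, 252 and 306 in Scr and differed by 0.089. HNRNPL, which binds CA repeats and acts in splicing of CD45 in lymphocytes, was at 138, 257 and 225 scaled FPKM in ROCK2 KD and at 133, 223 and 249 in Scr and differed by 0.042. In these 3 genes ROCK2 KD was higher in pairs 1 and 2 and lower in pair 3.

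HNRNPU, a nuclear scaffold protein, was at 58.0, 95.1 and 98.0 scaled FPKM in ROCK2 KD and at 58.6, 93.1 and 113 in Scr and differed by −0.064. HNRNPUL1, its paralogue with a role in DNA end resection, had the largest difference of the family. It was at 63.1, 90.6 and 79.6 scaled FPKM in ROCK2 KD and at 83.2, 92.7 and 100.3 in Scr, lower in each pair (−0.39, −0.033 and −0.33), with a fitted difference of −0.25 (SE 0.107, adjusted p = 0.909). The groups overlapped, since ROCK2 KD replicate 2 lay above Scr replicate 1.

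The remaining 4 genes did not reach the limit of 1 FPKM in 3 libraries. HNRNPCL1, a copy of HNRNPC, was at or below 4.2e-05 scaled FPKM in all 6 libraries. SRSF12 lay between 0.0065 and 0.0723 scaled FPKM. HNRNPCL2 was at 0.253, 3.46 and 0.456 scaled FPKM in ROCK2 KD and at 0.188, 3.14 and 0.475 in Scr, above 1 in replicate 2 of both groups only. SNRPN, the imprinted gene of the SmN protein on chromosome 15, was at 44.3 scaled FPKM in replicate 2 of both groups and at or below 0.0515 in the other 4 libraries.

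The SNRPN values were read together with SNURF, which is encoded by the same transcripts and overlaps it on chromosome 15 (chr15:25200134-25222997 within chr15:25068784-25223870, GRCh37, both on the plus strand). SNURF, looked at after its values were known, was at 82.5, 11.5 and 83.5 scaled FPKM in ROCK2 KD and at 54.9, 8.66 and 77.3 in Scr, so it was low in replicate 2, where SNRPN was high. The sum of the 2 genes was 82.5, 55.8 and 83.6 in ROCK2 KD and 54.9, 52.9 and 77.3 in Scr, a range of 1.58 times between the highest and the lowest library, against 9.64 times for SNURF alone. Of the 50-base stretches of the SNRPN transcript, 50.5% also occur in SNURF. The split between the 2 symbols thus followed the replicate number in both groups.

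Shared sequence also concerned HNRNPA1 (chr12:54673977-54680872, plus strand, GRCh37) and its copies without introns, HNRNPA1L2 on chromosome 13 (chr13:53216566-53217908) and the pseudogene HNRNPA1P10 on chromosome 19 (chr19:11776884-11777845). The copies were looked at after their values were known. Where they could be aligned to the 1116 coding bases of HNRNPA1, HNRNPA1P10 matched 99.6% of 959 aligned bases and HNRNPA1L2 98.4% of 960, and 58.4% and 33.2% of the 50-base stretches of the HNRNPA1 coding sequence were found unaltered in them.

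The deposited level of HNRNPA1P10 was 138, 86.2 and 311 scaled FPKM in ROCK2 KD and 115, 83.6 and 353 in Scr, and that of HNRNPA1L2 26.7, 96.5 and 43.4 and 29.9, 88.6 and 44.5. HNRNPA1P10 was highest in replicate 3 and lowest in replicate 2, while HNRNPA1L2 was highest in replicate 2, in both groups. The sum of the 3 loci differed between the groups by 0.12, 0.12 and −0.16 in pairs 1, 2 and 3, the same signs as HNRNPA1 alone. The range between libraries was 2.57 times for the sum, against 2.45 times for HNRNPA1 alone, 4.22 times for HNRNPA1P10 and 3.62 times for HNRNPA1L2. Unlike for SNRPN with SNURF, summing thus did not narrow the range below that of every part. How the authors assigned reads that map to several places is not given in the sources used here, so the level of each single copy is uncertain.

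**Figure D3:**
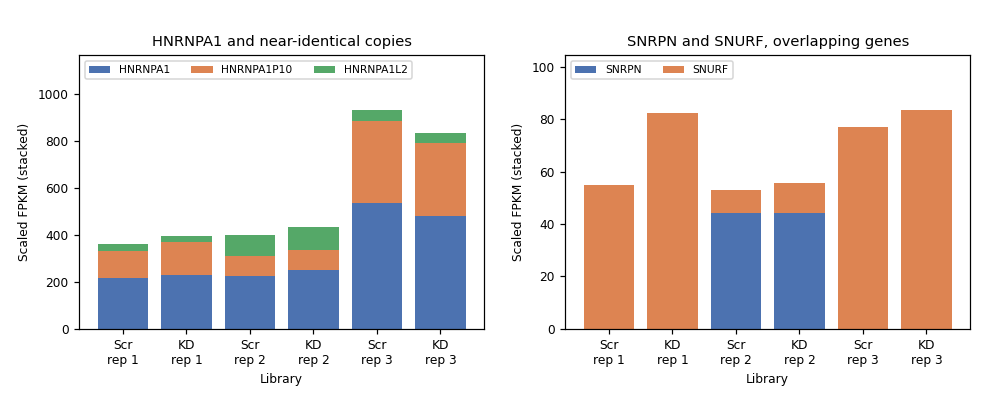
Stacked scaled FPKM (vertical axis) in the 6 libraries (horizontal axis, Scr and ROCK2 KD side by side by replicate number) for HNRNPA1 with HNRNPA1P10 and HNRNPA1L2 (left) and for SNRPN with SNURF (right). The left stack is highest in both replicate 3 libraries, and on the right SNRPN makes up most of the stack in replicate 2 only, at 44.3 scaled FPKM in both groups.

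Across the whole family list, 14 of the 70 genes shared no 50-base stretch with any other annotated gene, 30 shared more than 10% and 4 more than 50%, with a median of 3.70%. Among the 20 tested genes that shared under 1%, 14 were lower in ROCK2 KD, against 51.3% of all genes, with a median difference of −0.032. The readthrough transcript HNRNPUL2-BSCL2, which shared 98.8%, and HNRNPA3, which shared 73.8% and overlaps NFE2L2 in the annotation, differed by −0.16 and −0.041 (both looked at after their values were known).

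Levels also differed by replicate number, in both groups alike. In the same limma fit, the replicate number passed an adjusted p of 0.05 in 50 of the 66 genes (75.8%), against 48.7% of all genes tested. It passed in 8 of 11 SRSF, 19 of 22 HNRNP, 2 of 3 SF3A, 4 of 6 SF3B, 10 of 11 SNRP and 7 of 13 PRPF genes. Both replicate 1 libraries lay below the other 4 in 45 genes (68.2%, against 30.0% of all genes), and above them in 3, PRPF39, PRPF40B and SRSF11 (4.55%, against 29.7%). All 22 tested HNRNP genes had their lowest mean in replicate 1, as did 4392 of all 10526 genes tested. The median difference from replicate 1 was 0.53 in replicate 2 and 0.57 in replicate 3 on the log2 scale, where the medians of all genes were −0.020 and 0.019, and replicates 2 and 3 differed by a median of −0.013.

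HNRNPM, which binds GU-rich sequence and was looked at after its values were known, showed the pattern most plainly, at 59.3, 167 and 184 scaled FPKM in ROCK2 KD and at 59.9, 154 and 214 in Scr. Both replicate 1 libraries were far below the other 4, with a difference between the shRNAs of −0.039. SRSF10, an SR protein that acts as a repressor when dephosphorylated and was also looked at after its values were known, went another way, at 58.2, 70.7 and 29.4 scaled FPKM in ROCK2 KD and at 57.0, 63.2 and 32.8 in Scr, lowest in both replicate 3 libraries. Without replicate 1, the replicate number passed in 6 of 65 genes, against 5.04% of all genes, and without scaling of the libraries it passed in 65 of 66, against 77.1%. The splicing genes are abundant, with a median Scr mean of 71.7 scaled FPKM against 9.34 over all genes tested, and what part this level has in the difference between replicates was not tested. In the 20 genes that share under 1% of their sequence with others, the replicate number passed in 14, against 48.7% of all genes. Replicate 1 was lowest in 18 of the 20, against 4392 of all 10526 genes tested.

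**Figure D4:**
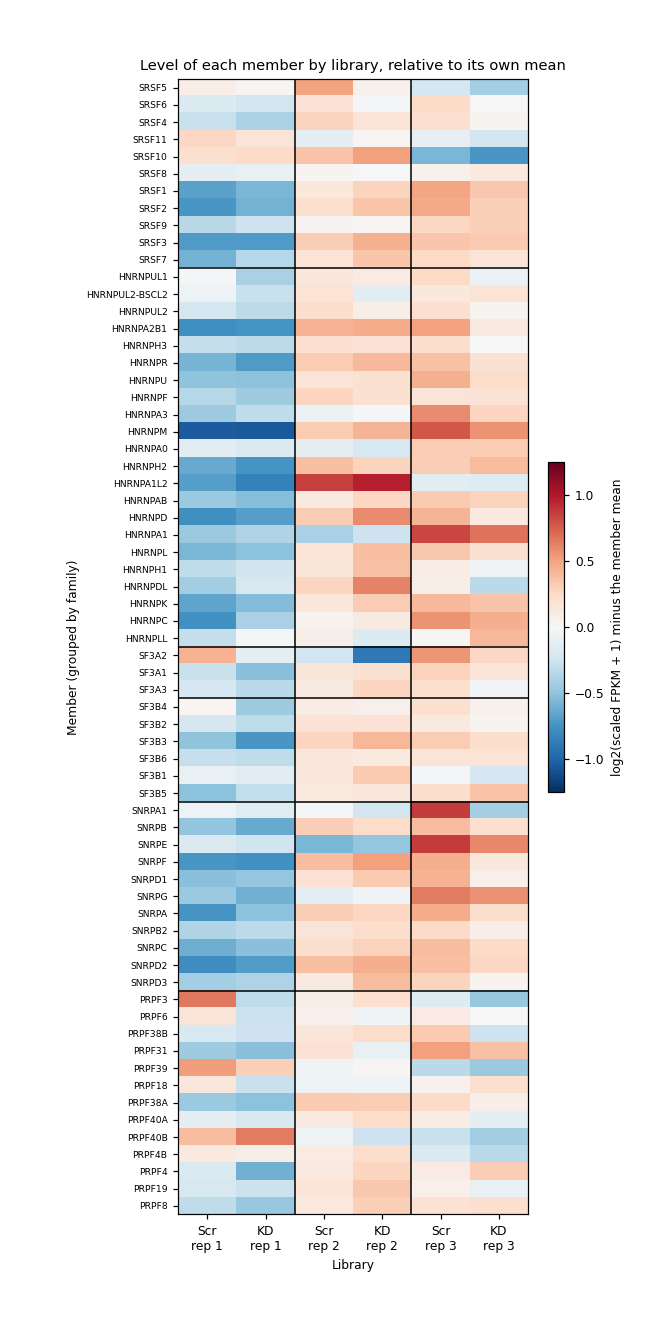
Level of each of the 66 tested genes (rows, grouped by family) in each library (columns, Scr and ROCK2 KD side by side by replicate number), as log2(scaled FPKM + 1) minus the gene's own mean over the 6 libraries, blue below and red above. Neighbouring columns of the same number look alike, and both replicate 1 columns are mostly blue, with both libraries below the other 4 in 45 genes.

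The promoters of 4 genes are given here because the first 3 had the lowest p or separate groups and the last was the one gene higher in all pairs. Each runs from 250 bases before to 50 bases after the RefSeq start of transcription (GRCh38.p14), 5′ to 3′ on the gene's strand. Capitals mark CCGGAAG, or CTTCCGG on the other strand, the core of binding sites for ETS factors, and CACGTG, the E-box of MYC and its relatives. The windows are chr19:2236574-2236873, plus strand, for SF3A2, chr15:101295199-101295498, minus strand, for SNRPA1, chr20:63980882-63981181, plus strand, for PRPF6 and chr6:144095524-144095823, minus strand, for SF3B5.
SF3A2: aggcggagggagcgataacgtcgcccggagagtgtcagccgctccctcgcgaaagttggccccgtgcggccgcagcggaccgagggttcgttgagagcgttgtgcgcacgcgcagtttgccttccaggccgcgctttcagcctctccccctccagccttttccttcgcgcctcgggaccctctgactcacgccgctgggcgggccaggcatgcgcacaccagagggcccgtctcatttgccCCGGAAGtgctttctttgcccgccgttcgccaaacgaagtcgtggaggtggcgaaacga
SNRPA1: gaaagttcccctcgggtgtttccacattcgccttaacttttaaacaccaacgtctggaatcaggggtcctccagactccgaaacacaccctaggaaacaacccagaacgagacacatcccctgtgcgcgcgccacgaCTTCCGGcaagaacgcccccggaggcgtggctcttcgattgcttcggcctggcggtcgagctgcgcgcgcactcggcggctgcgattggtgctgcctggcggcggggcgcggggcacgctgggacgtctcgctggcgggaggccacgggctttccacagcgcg
PRPF6: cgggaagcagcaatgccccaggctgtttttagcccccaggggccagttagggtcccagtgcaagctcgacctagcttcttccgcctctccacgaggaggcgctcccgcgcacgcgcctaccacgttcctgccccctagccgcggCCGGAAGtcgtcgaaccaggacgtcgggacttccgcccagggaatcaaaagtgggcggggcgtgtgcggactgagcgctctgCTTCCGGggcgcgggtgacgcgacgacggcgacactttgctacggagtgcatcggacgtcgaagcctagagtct
SF3B5: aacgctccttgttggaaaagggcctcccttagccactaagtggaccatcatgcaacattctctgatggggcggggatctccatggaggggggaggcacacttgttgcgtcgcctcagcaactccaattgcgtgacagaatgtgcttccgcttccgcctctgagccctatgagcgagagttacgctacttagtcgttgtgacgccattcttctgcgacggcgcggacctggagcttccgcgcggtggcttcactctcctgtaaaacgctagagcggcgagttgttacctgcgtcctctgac
SF3A2 held 1 ETS match, starting 9 bases before the start of transcription, and SNRPA1 held 1, starting 113 bases before it. PRPF6 held 2 ETS matches and SF3B5 none, and no window held an E-box.

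Promoters were listed for 58 of the 66 tested genes, with 78 starts in all, and all motifs were searched on both strands; none of their letter strings contains another. The ETS core was found in 28.2% of these promoters, in 19.2% of those of all genes tested and in 10.3% of all listed promoters. The E-box was found in 12.8%, against 9.80% and 7.26%. The GC box GGGCGG was found in 55.1%, against 67.1% and 45.0%, CCAAT in 43.6%, against 35.9% and 34.6%, and TATAAA in 8.97%, against 5.81% and 11.5%. Since a match is a string of letters in a window, it does not show that a factor was bound.

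The wider splicing machinery was read from 7 lists of genes outside these families, with 164 genes tested. Of these, 117 were lower in ROCK2 KD and 47 higher (median −0.048), against 51.3% of all genes lower. Of the 164, 6 had an unadjusted p under 0.05, against 5.39% of all genes, and none passed after adjustment. In all 3 pairs, 24 of the 164 were lower, against 12.3% of all genes, and 8 higher, against 12.7%. The partners of PRPF19 with the helicases and step factors were lower in 24 of 26 genes (median −0.083), with 23, 11 and 16 of them lower in pairs 1, 2 and 3. XAB2, a member of the intron-binding complex, was at 26.8, 22.5 and 29.6 scaled FPKM in ROCK2 KD and at 36.8, 29.4 and 34.8 in Scr, and differed by −0.35 (SE 0.0999, adjusted p = 0.811). DHX38, the helicase that acts before the second step of splicing, differed by −0.23. XAB2 was lower in each pair, with overlapping groups.

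Other snRNP proteins were lower in 29 of 33 genes (median −0.056; 26, 14 and 27 in pairs 1, 2 and 3), among them CHERP, a U2-associated protein, at −0.27 (SE 0.0967, adjusted p = 0.888), and SNRNP70, the U1-70K protein, at −0.19. SR-like and exon junction proteins were lower in 20 of 24 genes (median −0.070; 19, 6 and 20 in the pairs), with the apoptosis-linked junction factor ACIN1 at −0.28 and the polymerase-associated SCAF1 at −0.28. The LSm proteins, which form rings of U6 RNA, of U7 RNA and of decay complexes, were lower in 7 of 10 genes (median −0.067). By pair, 4, 6 and 8 of them were lower. LSM8 was at −0.15 (0.18, −0.14 and −0.50 in the pairs) and LSM3 at −0.10 (−0.27, 0.057 and −0.087). The SMN complex, which loads Sm rings, was lower in 9 of 14 genes (median −0.030, with 6, 3 and 11 lower in the pairs). Its lowest p values belonged to SMN1 at 0.25 and SMN2 at −0.51, near-identical genes whose reads are hard to tell apart.

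The kinases of SR proteins were lower in 6 of 11 genes (median −0.023, with 6, 5 and 6 lower in the pairs), with CLK2 at −0.13 and SRPK2 at 0.13. Other splicing regulators were evenly divided, with 22 of 46 lower (median 0.0036, with 25, 16 and 31 lower in the pairs). RBM3, an RNA-binding protein induced by cold, was the largest exception, at 11.7, 34.8 and 21.8 scaled FPKM in ROCK2 KD and at 9.61, 15.7 and 15.8 in Scr. It was higher in ROCK2 KD in each pair, most in pair 2 (0.26, 1.10 and 0.44), and differed by 0.60 (SE 0.169, adjusted p = 0.811 by limma), with overlapping groups. KHSRP, a KH-domain protein of splicing and mRNA decay, was lower in each pair and differed by −0.25 (SE 0.0916, adjusted p = 0.897). As in the main families, the medians over all 164 genes were −0.081, 0.047 and −0.089 in pairs 1, 2 and 3. Not every list shared these signs: the LSm medians were 0.048 and −0.062 in pairs 1 and 2, and the SMN median was 0.065 in pair 1.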

How the data were processed

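Per the labels and the study's methods, the authors prepared Nextera libraries from U2932 ROCK2 KD and Scr cells (3 each), mapped 50-base read pairs to hg19 with STAR and deposited Cufflinks FPKM values per gene symbol, 1 file per library (tools and build also per the submitters' processing notes). The gene annotation and the handling of reads with several map positions are not given in the sources used here. The files hold no read counts, so the number of reads behind each value is unknown, although the study's methods give an approximate range of depth per sample. Comparing the lowest values of genes between libraries put the relative depths between 71.4 and 100% of that of Scr replicate 3, with no whole reads recovered.

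FPKM values were brought to one scale by the trimmed mean of the log ratios (trims 0.3 and 0.05), filtered at 1 FPKM in at least 3 libraries, transformed as log2(scaled FPKM + 1), which understates changes of low genes, and fitted with limma 3.58.1 (R 4.3.3; mean-variance trend, two-sided, Benjamini-Hochberg over 10526 genes, threshold 0.05). The replicate number was a block, as the study corrected for it. The study ran limma on batch-corrected raw counts and did report differentially expressed genes, so the lack of calls here belongs to this fit on FPKM. Deviations from the group means correlated between same-numbered libraries (r = 0.848, 0.784 and 0.737 across genes, against −0.64 to 0.05 between other numbers), so the numbers were taken to pair the libraries. The fit was tested on simulated data.

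Genes were named by rule: unadjusted p under 0.05, the 5 largest differences each way among those of one sign in all 3 pairs, the 2 most abundant per family, those failing the filter, and well-known members; exceptions are marked. For other lists, the 2 genes of lowest p were named. Members, lists and rules were chosen with earlier results of these data known. Gene positions and transcripts come from GENCODE 44 on GRCh37, promoters from RefSeq on GRCh38.p14. Alternatives were no block, ComBat, other scalings, filters and pseudocount, no trend, and leaving out each replicate number.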

Additional observations from a re-analysis of the deposited data

How the results depend on the processing

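The limits of these data are the 3 pairs, the unknown number of reads behind each FPKM and the sequence shared with copies. Paired by replicate number, the fit called 0 genes and 567 had an unadjusted p under 0.05; with no replicate block these were 0 and 30, with 0 instead of 1 splicing gene at the unadjusted threshold, and the block changed no other call. ComBat, with limma run without a block, gave 297 genes called, 2112 with an unadjusted p under 0.05, 12 splicing genes at that threshold and 1 called, SF3A2 (−0.38, adjusted p = 0.0339). Unadjusted p under 0.05 was met by 3 splicing genes with at least 1 FPKM in every library (537 of 9648 genes in all), by 2 with median scaling (584 of 10526) and by 1 to 4 when a replicate number was left out. With no filter or with median scaling, 2 splicing genes were higher in all pairs, against 1.

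Leaving out a replicate number gave 0 to 1 genes called and 390 to 816 genes with an unadjusted p under 0.05. The replicate number term passed the threshold in 6 to 46 splicing genes, against 5.04 to 44.9% of all genes tested. In all remaining pairs, 14 to 34 splicing genes were lower and 4 to 20 higher. Fewer pairs have to share a sign in these counts, and the matching shares over all genes were not counted. The splicing genes' median lay between −0.10 and 0.019, and 16 of the 30 named genes took both signs, namely HNRNPA1 (−0.038 to 0.12), HNRNPA2B1 (−0.19 to 0.027), HNRNPC (−0.016 to 0.22), HNRNPL (−0.043 to 0.14), HNRNPU (−0.11 to 0.015), PRPF19 (−0.11 to 0.054), PRPF8 (−0.066 to 0.10), SF3A3 (−0.18 to 0.024), SF3B1 (−0.12 to 0.085), SNRPA (−0.15 to 0.090), SNRPD1 (−0.16 to 0.10), SNRPD2 (−0.019 to 0.083), SNRPE (−0.17 to 0.014), SRSF1 (−0.031 to 0.12), SRSF2 (−0.025 to 0.14) and SRSF3 (−0.012 to 0.079). The other 240 values of the named genes under the remaining settings kept their sign, and 239 kept their side of the threshold.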
